A study of Rattus norvegicus with 2 samples.

Results

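A set of 9 genes of neurotrophic signalling was followed in cultured dental papilla cells of the rat: the ligands Bdnf, Ntf3 and Gdnf, the neurotrophin receptors Ntrk2, Ntrk3 and Ngfr, and the GDNF family receptors Gfra1, Gfra2 and Ret. They were chosen by name, through the RefSeq accession that the array design gives for each probe, and not by their values. All 9 were found, as 16 probes on 43 spots, out of 15164 named genes and 30367 probes on the array. Dental papilla cells are the tooth mesenchyme from which odontoblasts arise. Primary cells from rats of postnatal day 1 to 3 were used at passage 3 to 4. Both groups were kept for 3 days in the odontogenic induction medium OS, that is α-MEM with 8% serum that held ascorbic acid (0.2 mM), β-glycerophosphate (10 mM) and dexamethasone (0.1 mM as the labels give it), and one group also received 10 nM melatonin, the pineal hormone. Total RNA of each group was read on 1 one-colour Agilent array. The labels give no strain, and do not say whether RNA of several cultures was pooled. The sample titles end in a number that no label explains. With 1 array per group there was no replicate error and no test between the groups, and every ratio below compares these 2 arrays.

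Neurotrophins are secreted as larger precursors, and the mature factors bind Trk receptor tyrosine kinases, BDNF acting mainly through TrkB (the product of Ntrk2) and neurotrophin-3 mainly through TrkC (Ntrk3), while all of them, and their precursors with higher affinity, bind the p75 receptor (Ngfr). GDNF binds the membrane-anchored co-receptor GFRα1, neurturin prefers GFRα2, and both complexes signal through the receptor tyrosine kinase RET. In the tooth, papilla and pulp cells are known as a source of such factors for the sensory and sympathetic axons that grow in from the jaw, and p75 is also used as a marker of neural crest cells and of mesenchymal progenitors.

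Of the 9 genes, 3 (Bdnf, Ntrk2 and Ntrk3) were well above background on both arrays by the scanner software's own flag, 1 (Gfra2) on the OS array only, and 5 (Ntf3, Gdnf, Ngfr, Gfra1 and Ret) on neither. Over all named genes 54.3% were well above background on both arrays, 6.43% on the OS array only and 39.1% on neither. None of the 3 measured genes differed by 2-fold between the arrays, where 0.96% of the 8231 measured genes did, 0.255% higher and 0.705% lower with melatonin. None differed by 1.5-fold either, where 4.67% did, 2.03% higher and 2.64% lower. The log2 ratios of melatonin over OS had a median of 0.14 for the 3 genes and of 0.039 for all measured genes, of which 57.6% had a ratio above 0. In RNA from whole cultures, fewer cells that express a gene and less RNA per cell cannot be told apart.

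Signals are given as the software's processed signal, a background-subtracted brightness in intensity units, and ratios after each array was scaled to its own 75th percentile, which was 428 in OS and 329 with melatonin. This scaling raised every log2 ratio by 0.38, more than the ratio of any of the 3 measured genes, so their direction is relative to the rest of the array. The dimmest probe with the flag stood at 20.7 in OS and 29.6 with melatonin. The 153 spots of the negative control probe lay between 4.12 and 6.45 in OS and between 5.89 and 6.92 with melatonin. After scaling, the negative control itself had a log2 ratio of 0.87. No direction is therefore read from the ratios of probes at background. No spot was saturated on either array.

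**Figure D1:**
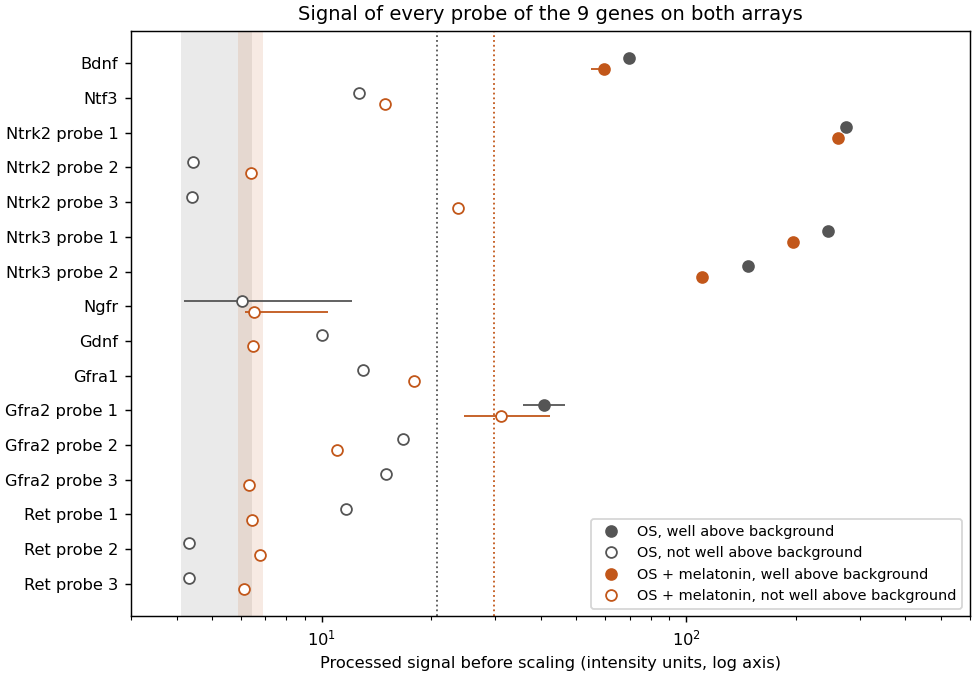
Processed signal before scaling (log axis, intensity units) of all 16 probes of the 9 genes on the OS array (grey) and on the melatonin array (orange); points are the spot or the median of the used spots, lines the range over spots, filled points are well above background. Shaded bands are the range of the negative control spots and dotted lines the lowest signal called well above background on each array; probes of a gene are numbered by falling OS signal, and 1 probe each of Bdnf and Ntrk2 and both of Ntrk3 are filled on both arrays.

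Among the ligands, Bdnf was detected and read by 1 probe (accession NM_012513) printed 10 times. Its 7 usable spots ran from 68.2 to 71.0 in OS, with a median of 69.9, and from 54.7 to 61.3 with melatonin, at a median of 59.4. Before scaling all 7 spots were dimmer on the melatonin array, with a mean log2 ratio of -0.24. After scaling the mean level was -2.62 in OS and -2.48 with melatonin, in log2 units relative to the 75th percentile, a log2 ratio of 0.14 (SD 0.051 between the 7 spots). The 7 spot ratios ranged from 0.048 to 0.20 and all lay above 0. That SD describes the spots of 1 array pair alone, and not the spread between cultures. The middle 50% of measured genes lay between -0.10 and 0.18, and Bdnf lay inside that range. The other 3 Bdnf spots were flagged as outliers on 1 or both arrays and were left out. With these kept, the log2 ratio was 0.15.

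Ntf3, which encodes neurotrophin-3, was read by 1 spot with a signal of 12.6 ± 4.93 in OS and 14.9 ± 6.47 with melatonin, where ± is the error that the software models for a spot. Both values lay above every negative control spot and below the level called well above background. Gdnf, the ligand that acts through Gfra1 and Ret, was read by 1 spot at 10.0 ± 4.95 in OS and 6.47 ± 6.45 with melatonin. The Gdnf signal lay within the range of the negative control on the melatonin array. Neither gene had a measurable level by this flag, and no fold is given for them.

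Among the receptors, Ntrk2 and Ntrk3 were detected. Ntrk2 was read by 3 probes of 1 spot each. The first (NM_012731) had a signal of 274 ± 27.8 in OS and 261 ± 27.0 with melatonin. After scaling this was 1.24-fold higher with melatonin (log2 ratio 0.31, modelled error 0.21), the largest ratio among the 3 measured genes and above the middle 50% of all measured genes. For comparison, the SD of the log2 ratio over all 13533 measured probes read by 1 spot was 0.38, so the Ntrk2 ratio was smaller than the spread of such probes.

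The other Ntrk2 probes did not bear out a level. The probe for a further RefSeq transcript (NM_001163168) had 4.44 in OS and 6.41 with melatonin, both within the range of the negative control. The third, which carries the same accession as the first, had 4.41 ± 4.40 in OS and 23.6 ± 6.52 with melatonin. That spot was well above background on neither array, and its scaled log2 ratio of 2.80 has a modelled error of 1.49, beside the 0.87 of the negative control. Where such probes are averaged with the first, the Ntrk2 log2 ratio becomes 1.34 and passes 2-fold, a value that rests on 1 dim spot. Such a split, with a probe detected on both arrays and another on neither, was found in 29.2% of the 1836 genes with several probes of which at least 1 was detected on both arrays. Where on the transcripts these probes lie is not given in the files used here, so the values are not assigned to the catalytic or the kinase-lacking form of TrkB.

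Ntrk3 was read by 2 probes (both NM_019248). The first had a signal of 245 ± 24.9 in OS and 197 ± 20.6 with melatonin, a log2 ratio of 0.064 after scaling (modelled error 0.21). The second had 148 ± 15.4 and 110 ± 12.8, a log2 ratio of -0.042 (modelled error 0.23). The probes thus lay on opposite sides of 0, each by less than its error, and their mean log2 ratio was 0.011. Ntrk3 therefore had nearly equal scaled levels on the 2 arrays. Its sign was not stable, since 2 of the scaling alternatives placed it at -0.0057 and -0.00072.

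**Figure D2:**
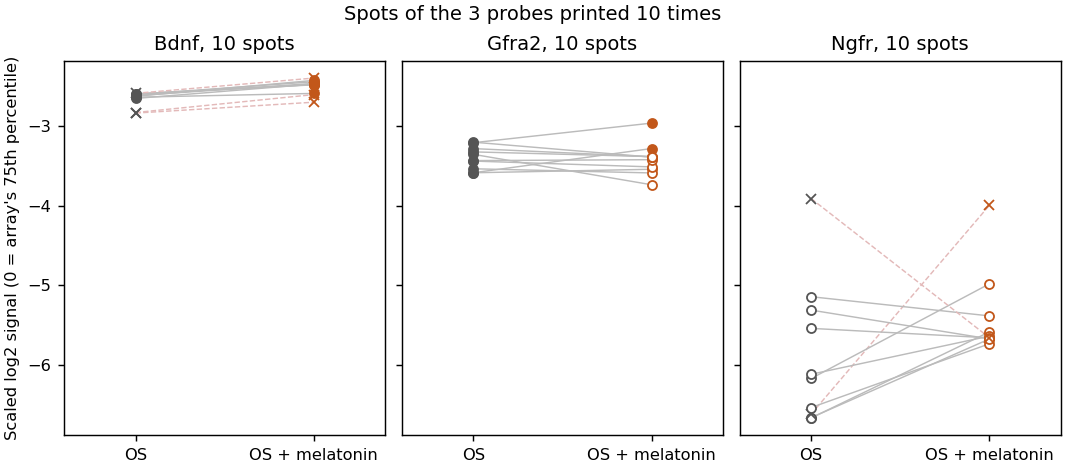
Scaled log2 signal (0 is the 75th percentile of the array) of each of the 10 spots of the Bdnf, Gfra2 and Ngfr probes that were printed 10 times, in OS and with melatonin, with a line joining the same spot position; filled points were well above background, and crosses with dashed lines were flagged as outliers and left out. All 7 used Bdnf spots were higher on the melatonin array, 4 of 10 Gfra2 spots were, and the used Ngfr spots lay near background.

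Ngfr, the p75 receptor, was read by 1 probe printed 10 times. Its 8 usable spots ran from 4.20 to 12.1 in OS, with a median of 6.03, and from 6.15 to 10.4 with melatonin, at a median of 6.53. None of them was well above background on either array, and both medians lay within the range of the negative control. The spots scattered by a log2 SD of 0.63 in their ratio, against 0.051 for Bdnf and a median of 0.16 over the 1033 measured probes with at least 8 used spots. By the software's looser flag (signal positive and significant), 5 of the 8 used spots passed in OS and 3 with melatonin. A left-out outlier spot of Ngfr had 28.5 in OS, where it was well above background, and 6.49 with melatonin. Another had 4.34 and 20.6, and was well above background on neither array. Ngfr thus missed the well-above-background flag in all 8 used spots, while Ntf3, Gdnf and Gfra1 each rest on 1 spot.

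Of the GDNF family receptors, Gfra2 alone was well above background, and on the OS array only. Its probe printed 10 times ran from 35.7 to 46.6 in OS, with a median of 40.8, and from 24.7 to 42.2 with melatonin, at a median of 31.0. All 10 spots were well above background in OS and 3 of 10 with melatonin. The scaled levels were -3.39 and -3.42, and the spot ratios ranged from -0.38 to 0.31 (mean -0.025, SD 0.20), with 4 of 10 above 0. The authors' deposited values of the same probe gave a log2 ratio of 0.19, on the other side of 0, so no direction is read for Gfra2. The higher floor of the melatonin array lies beside this loss of the flag: -3.47 after scaling, against -4.37 on the OS array. The other 2 Gfra2 probes, of 1 spot each, had 16.8 and 15.1 in OS and 11.1 and 6.33 with melatonin, and were not well above background on either.

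Gfra1, the GDNF co-receptor, was read by 1 spot at 13.0 ± 4.71 in OS and 18.0 ± 6.32 with melatonin, in both cases above the negative control and not well above background. Ret, the shared signalling receptor, was read by 3 probes of 1 spot each. Of these, 2 lay within the range of the negative control on both arrays, at 4.33 and 4.32 in OS and 6.79 and 6.14 with melatonin. The third, for another Ret transcript (NM_001110099), had 11.7 in OS and 6.46 with melatonin. On the OS array, 6 of the 11 undetected probes of these genes stood above all negative control spots with every used spot, and 4 of 11 did so on the melatonin array. Signals above the negative control that missed the flag are therefore not read as a lack of expression.

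The remaining genes of the neurotrophin and GDNF families, and their processing and signalling partners, were read from lists chosen with earlier results of these data known. Of the other neurotrophin genes, Sort1 (sortilin, which pairs with p75 to bind precursors) was measured by 2 probes that disagreed in sign (log2 ratios -0.38 and 0.037, mean -0.17). Sorcs2, a receptor of the same family, had a log2 ratio of 0.057 over 10 spots (SD 0.09). Ntf4 and Sorcs3 were well above background on neither array, and Sorcs1 was detected on the OS array only, with a bound of 1.12-fold lower. Of the other GDNF family genes, Artn (artemin, a ligand for GFRα3) was 1.16-fold lower with melatonin, Ncam1, an adhesion molecule that can serve GDNF as a receptor, 1.22-fold higher, and Sdc3, a syndecan that binds GDNF, 1.16-fold higher, each by 1 spot. Nrtn, Pspn, Gfra3, Gfra4 and Gfral were well above background on neither array, and Gdf15, the ligand of GFRAL, was detected on the OS array only, with a bound of 1.17-fold lower. These bounds set 1 OS spot against the higher floor of the melatonin array, and are smaller than the log2 SD of 0.38 of probes read by 1 spot. Over all named genes, 975 were detected on the OS array only and 20 on the melatonin array only. No direction is therefore read for Sorcs1 or Gdf15.

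The enzymes that cut neurotrophin precursors, and their inhibitors, had 6 measured members of 10 on the array. Of these 6, 5 lay below 0 and 1 above, and none passed 2-fold (median log2 ratio -0.14). Among all measured genes 57.6% lay above 0, and the median log2 ratio was 0.039. Plg, the precursor of plasmin, was 1.52-fold lower over 10 spots (log2 ratio -0.60, SD 0.38 between spots), and the log2 ratio was -0.26 with normexp background correction. Pcsk7, a proprotein convertase, had a log2 ratio of -0.26 by 1 spot. Furin, which cuts the precursors inside the cell, was nearly equal on the arrays at a log2 ratio of -0.029; it was picked once its value was known.

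The adaptors that bind activated Trk and Ret receptors had 19 measured members of 25, with 12 above 0, 7 below and none past 2-fold (median 0.036, close to the 0.039 of all genes; in this and the following lists the counts above 0 stand beside 57.6% over all measured genes). Sh2b2 was 1.49-fold and Crkl 1.44-fold higher, each by 1 spot, and the Sh2b2 log2 ratio of 0.58 was 0.31 with normexp correction. Frs2, an adaptor that links Trk receptors to the Ras pathway, had a log2 ratio of 0.0089 over 10 spots, and was named after its value was seen. Partners of p75 and the proteases that cut it had 13 measured members of 19, with 9 above 0 (median 0.060). Ncstn, nicastrin of the γ-secretase complex that cuts p75 in the membrane, was 2.06-fold lower with melatonin and was the only gene of these lists past 2-fold. Its 2 probes of 1 spot each had log2 ratios of -1.66 and -0.43, and with the brighter probe alone the ratio of -0.43 no longer passed. Of the other γ-secretase genes, Psen2 had a log2 ratio of 0.087, Aph1a of 0.13 and Psenen of 0.045 (10 spots), and these were chosen after their values were seen.

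**Figure D3:**
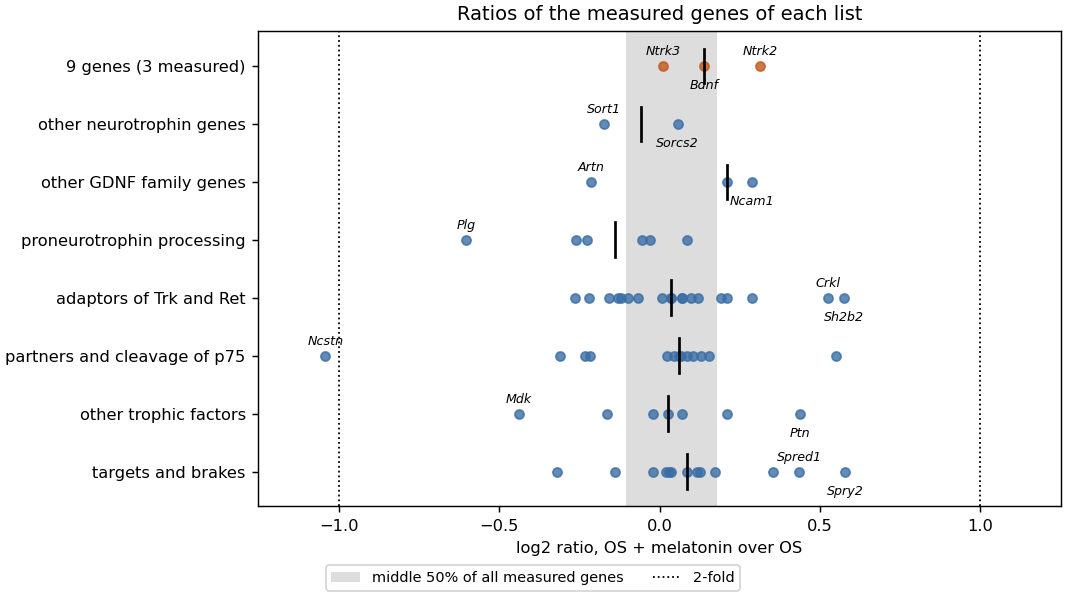
Log2 ratio of melatonin over OS for every measured gene of the 9 genes (orange) and of the 7 related lists (blue), with the median of each row as a black bar, the middle 50% of all measured genes in grey and 2-fold as dotted lines. Of all genes shown, Ncstn alone lies past 2-fold, at -1.04, and the 3 measured genes of the 9 lie between 0.011 and 0.31.

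Other trophic factors and their receptors had 7 measured members of 18, with 4 above 0 and 3 below (median 0.025). The related heparin-binding growth factors Ptn (pleiotrophin) and Mdk (midkine) had ratios of opposite sign, Ptn 1.35-fold higher (log2 ratio 0.44) and Mdk 1.35-fold lower (-0.44), each by 1 spot. Genes that are commonly induced by, or that restrain, receptor tyrosine kinase signalling had 13 measured members of 17, with 10 above 0 (median 0.087) and none past 2-fold. Spry2, an inhibitor of Ras signalling, was 1.49-fold higher and its relative Spred1 1.35-fold, each by 1 spot. Spry2 was dim, at a scaled level of -3.70 in OS and -3.12 with melatonin. Its OS level lay below the lowest level detected on the melatonin array (-3.47), so an equal level there would not have counted as measured. Arc and Dusp6, both chosen after their values were seen, had log2 ratios of 0.087 (SD 0.10) and 0.17 (SD 0.23) over 9 spots each. The 3 measured genes below 0, also named afterwards, were Egr1 (-0.32, 1 spot), Nr4a1 (-0.14, 10 spots) and Etv5 (-0.021, 1 spot).

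Markers listed for cell types that the culture could hold were read in the same way. All 13 papilla mesenchyme markers on the array were measured, among them Msx1, Pax9, Lhx6 and Lhx8. Of 4 odontoblast genes 1 was measured (Nes, log2 ratio 0.0023), while Dspp, Dmp1 and Phex were well above background on neither array. Of 13 neuronal markers on the array 4 were measured (Tubb3, Nefm, Stmn2 and Uchl1), all with a ratio above 0 (0.028 to 0.20), as 57.6% of all measured genes had, while Elavl3, Elavl4, Prph, Gap43, Snap25 and Syt1 were well above background on neither array. Their summed level was 4.09 in OS and 4.27 with melatonin, in scaled log2 units. Of 12 Schwann cell and glial markers 4 were measured (Sox10 at -0.29, Pmp22 at 0.26, S100b at 0.15 and Egr2 at 0.031, summed level 4.53 and 4.75), while Gfap was well above background on neither array and Mag, detected on the OS array only, was at least 2.14-fold lower. Most of the summed glial level lay with Pmp22, at 4.27 in OS and 4.53 with melatonin. Bdnf, Ntrk2 and Ntrk3 (0.011) also had ratios above 0, the side of most measured genes. Of 8 macrophage markers 5 were measured, 2 of them above 0, and their summed level was 1.63 in OS and 1.21 with melatonin. Most of that difference of -0.42 lay with Lyz2, a lysozyme gene at a log2 ratio of -2.47, since the other 4 markers differed in sum by -0.083. That sum is mostly Cd14, the brightest of the 4 (0.83 in OS), at a log2 ratio of -0.069. Cd68 was also lower, by 1.53-fold, while Csf1r and Aif1 lay above 0 (0.20 and 0.072), each by 1 spot. Of 7 endothelial markers 3 were measured, none above 0 (summed level 0.62 and 0.49), and Pecam1 and Kdr, detected on the OS array only, were at least 2.59-fold and 1.98-fold lower. Of 7 muscle markers 2 were measured, neither above 0 (3.86 and 3.26), and Myh7 and Des, detected on the OS array only, were at least 5.01-fold and 1.34-fold lower. The bounds of Pecam1, Kdr, Myh7 and Des each set 1 OS spot against the higher floor of the melatonin array. That of Des was little larger than the spread of probes read by 1 spot. Of 10 epithelial markers Tp63 alone was measured, at -0.029. Krt14 was detected on the OS array only, and its bound of 1.16-fold lower was smaller than the spread of probes read by 1 spot. Mbp, Krt18, Myh3 and Myog were also detected on the OS array only, but too low there to give a bound. Their log2 ratios were 0.25, 0.21, 0.065 and -0.98. The macrophage markers named and the markers detected on the OS array only were picked after their values were seen. The part of these cell types in the ratios of the 9 genes was not tested.

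**Figure D4:**
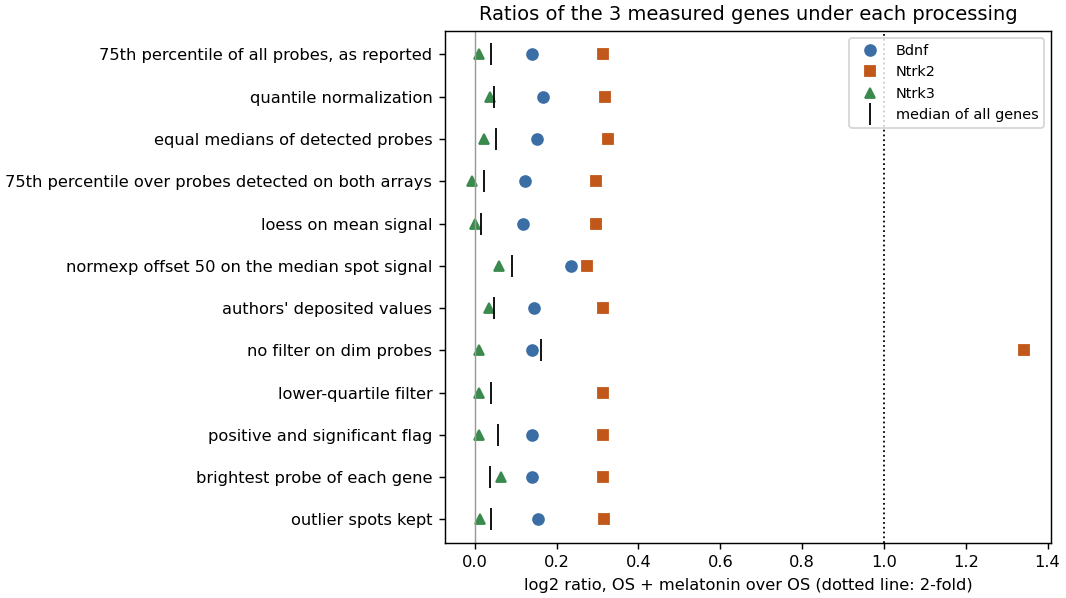
Log2 ratio of melatonin over OS for Bdnf (circles), Ntrk2 (squares) and Ntrk3 (triangles) under the reported processing and 11 alternatives, with the median of all genes as a bar and 2-fold as the dotted line. Bdnf lay between 0.12 and 0.24 in the 10 alternatives that kept it, Ntrk2 between 0.27 and 0.32 in all but the setting without a filter on dim probes (1.34), and Ntrk3 between -0.0057 and 0.064.

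The authors' deposited values, whose normalization is not stated, gave log2 ratios of 0.15 for Bdnf, 0.31 for Ntrk2 and 0.035 for Ntrk3. Bdnf and Ntrk2 kept a ratio above 0 under each alternative that gave a value, and Ntrk2 also stayed above the median of all genes in each. Bdnf lay below that median in 1 of 10, without a filter on dim probes, where the median of all genes rose to 0.16.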

How the data were processed

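Total RNA was labelled with Cy3 and hybridised to 1 array per group, per the labels' protocols. Per the file headers, the spot intensity values came from Agilent Feature Extraction 11.0.1.1 for design 028282, annotated on build rn4; the processed intensity is background-subtracted, spatially detrended and not normalized between arrays. The flags per spot were used as deposited. The authors' table of log2 values followed the log2 processed signal (Pearson correlation across probes 0.9997 and 0.999); how it was normalized is not stated in any source used, and it served as an alternative.

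Probes were named by looking up their RefSeq accession, without version, in a GRCr8 gene table, used for names alone, so no coordinates are given (18000 of 30359 probes, 59.3%). Outlier spots on either array were left out, log2 signals were scaled to each array's 75th percentile, the mean was taken over the spots of a probe, and probes well above background in most spots on both arrays were averaged per gene. A gene counted as changed at 2-fold; no test between groups was possible. For a probe detected on 1 array, the bound sets its level against the higher of its own level and the lowest detected level on the other array. The modelled error of a log2 ratio combines the software's errors of both spots.

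The genes named were all 9 members, the other neurotrophin and GDNF family genes, and from each further list the genes past 2-fold or else the 2 largest ratios; others are marked as chosen afterwards. Some genes of these lists are not reported here. The members and lists were chosen with earlier results of these data known. The steps from spots to gene ratios were tested on simulated data in which both arrays had the same flags. That test does not cover differences in detection or background between the arrays. Python 3.11.15 was used, with limma 3.58.1 for normexp.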

Additional observations from a re-analysis of the deposited data

How the results depend on the processing

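Of the 9 genes 3 were measured; this became 9 with no filter on dim probes and 6 with the software's looser flag (signal positive and significant). With no filter, 1 gene passed 2-fold (Ntrk2), the median of the 9 genes was 0.48 and that of the other neurotrophin genes 0.43; probes at background enter there. No other median or count over a list moved by more than the 0.16 SD between spots (counts by over 1.5 times). Apart from the setting with no filter, list medians crossed 0 in 1 setting each for the other neurotrophin genes (0.047, brightest probe of each gene; -0.058 as reported), adaptors (-0.042, lower-quartile filter), p75 partners (-0.046, normexp) and other trophic factors (-0.019, outlier spots kept). Over all genes 21 were 2-fold higher and 58 lower, against 9 and 35 with normexp, 1860 and 229 with no filter and 612 and 155 with the other flag. With thresholds of 1.5-fold and 3-fold, 0 of the 3 genes passed. Normexp was run on the median spot signal. Signals near background limit detection: for the 10 undetected probes of 1 spot the modelled error was 27.6% to 99.8% of the signal. No paired analysis was possible because each group has 1 array, and no replicate could be left out.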
